A study of Mus musculus with 16 samples.

Results

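The cytosolic ribosome of mouse cells is built from ribosomal RNA and a large family of ribosomal proteins, named Rpl for the large subunit, which joins amino acids, and Rps for the small subunit, which reads the messenger RNA. Genes were taken by symbol, as Rpl or Rps followed by a digit, or Rplp0, Rplp1, Rplp2 or Rpsa, without the ribosomal S6 kinases. The deposited table held 78 such probes for 63 symbols. A gene was kept where a probe had a detection p-value under 0.05 on at least 4 arrays, and its brightest such probe stood for it. This left 59 genes, 33 of the large and 26 of the small subunit, among 9680 genes and 25697 probes. Of the 4 symbols left out, Rpl17, Rpl3l and Rplp2 were detected on 0 of 16 arrays and Rps23 on 1. Of the 59 genes, 58 were detected on all 16 arrays, the exception being Rpl6 (9 arrays).

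RNA came from mouse cells enriched for haematopoietic stem cells and was hybridised to 16 Illumina bead arrays, 4 in each of 4 groups. Jak2VF cells bore a knocked-in, activating allele of the kinase Jak2 that is known from polycythemia vera, with the CD45.2 form of the leukocyte surface protein CD45. They came from mice given either interferon alpha at 10000 units a day or vehicle for 4 weeks. WT cells carried CD45.1 and came from mice treated in the same 2 ways, and the strain background is given as C57B16 for every group. The labels name neither what drives the knock-in allele nor the animals behind an array, so the spread behind each p-value is that of these samples and may be technical in part. The labelled cell type was checked on 16 stem and progenitor markers. Of these 13 were measured, with Ly6a, Cd34, Meis1 and Gata2 detected on 16 arrays and Slamf1 on 15. Procr was detected on 6, Hlf on 5 and Erg on 4, Flt3 and Fgd5 did not pass, and Kit was not analysed here.

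Ribosomal protein messages are among the most abundant of any growing cell, and their proteins are made in matched amounts. Many begin with a 5′ terminal oligopyrimidine (TOP) tract, a C followed by a run of C and T, through which mTOR signalling controls their translation, so that protein output can change without a change in message. Blood formation is known to be sensitive to them. In humans, loss of one copy of genes such as RPS19 or RPL35A can cause Diamond-Blackfan anaemia, in which red cell precursors fail, and loss of RPS14 marks a form of myelodysplasia.

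The start regions of a few genes are shown because the TOP tract is known from many genes of the family, and because they belong to genes that the comparisons below turn on. They are RefSeq sequences of build GRCm38.p6, 10 bases before to 20 bases from the annotated start, 5′ to 3′ on the gene's strand, with the longest run of C and T in capitals. Rpl14 (chr9:120571507-120571536, plus strand) and Rps27l (chr9:66946076-66946105, plus) were higher in Jak2VF than in WT cells under interferon. Rps27 (chr3:90213629-90213658, minus) is the paralogue of Rps27l. Rpl22 (chr4:152325716-152325745, plus) and Rps25 (chr9:44407704-44407733, plus) had wide spreads, Rps6 (chr4:86857348-86857377, minus) encodes the protein that S6 kinases phosphorylate, and Rpl38 (chr11:114668570-114668599, plus) had probes that differed.
Rpl14: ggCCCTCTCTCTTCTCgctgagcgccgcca
Rps27l: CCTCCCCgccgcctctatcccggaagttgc
Rps27: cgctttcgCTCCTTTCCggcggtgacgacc
Rpl22: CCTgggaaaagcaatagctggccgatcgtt
Rps25: ccgacaTCTTagcgaggctgctgtggtcta
Rps6: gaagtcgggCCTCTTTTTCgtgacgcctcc
Rpl38: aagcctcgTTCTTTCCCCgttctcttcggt

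The run was 14 bases long in Rpl14, 10 in Rps6 and Rpl38 and 9 in Rps27, and in these 4 genes it covered the start itself. In Rps27l it was 7 bases long and lay before the start, and in Rpl22 the longest run was 3 bases. Entries were found for 46 of the 59 genes, while Rps27a, Rpl23a, Rps14 and 10 others had none. A run of at least 8 bases stood in 16 of 46 windows (34.8%), against 3021 of 27025 promoters of all genes (11.2%). A C at the start followed by 4 pyrimidines stood in 9 of 46 (19.6%), against 673 of 27025 (2.49%). In the 250 bases before the start, CCGGAA on either strand, the core of sites of ETS-family factors, was found in 19 of 46 (41.3% against 12.2% of all). The TATA box letters TATAAA stood in 2 of 46 (4.35% against 13.0%). The letters AAGATGG, a core of YY1 sites, from 250 bases before to 50 bases from the start, stood in 8 of 46 (17.4% against 6.48%). The first 2 of these features share letters, since every gene with the C motif except Rps21 also had the run across its start. AAGATGG on the other strand reads CCATCTT and can also run into a pyrimidine run, as in Rps15a. A match is a description of these letters only, and whether the annotated start is the one used in these cells was not tested.

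The scanner signal of many of these genes was high, which may bear on the comparisons that follow, though the scanner's limit is not given. The brightest probe on an array read between 36729 and 68488. Among the 59 genes, 39 reached 30000 on at least 1 array or came within 5% of its brightest probe, and are called near saturation here, while 20 did not. That mark is a loose one, since between 0 and 5 of the genes on an array came within 5% of its brightest probe. Rps6 reached 30000 on only 1 array, with a median of 13870 over the arrays. Rpl41, which encodes the smallest ribosomal protein and is named for this value, read 30000 or more on all 16 arrays, and 24 genes did so on 10 or more. Of the 104 probes of the table that reached 30000 on any array, 41 carried a ribosomal protein symbol. The genes made up between 7.27% and 14.97% of all signal on an array.

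Arrays also differed in brightness as a whole. Mean intensity was 883.6 ± 217.7 in Jak2VF cells with interferon (SD, n = 4), 497.6 ± 100.2 in Jak2VF cells with vehicle, 684.1 ± 304.7 in WT cells with interferon and 305.1 ± 121.5 in WT cells with vehicle. Interferon arrays were brighter by log2 0.81 in Jak2VF cells (exact permutation test, two-sided, p = 0.0571, and 0.114 after Benjamini-Hochberg adjustment over 4) and by 1.13 in WT cells (exact p = 0.0857, adjusted 0.114). Jak2VF arrays were brighter than WT arrays by log2 0.47 with interferon (exact p = 0.371, adjusted 0.371) and 0.78 with vehicle (exact p = 0.0857, adjusted 0.114). With 4 arrays in each group p cannot go below 0.0286. The share of signal from ribosomal protein genes was 9.34% in Jak2VF cells with interferon, 12.5% in Jak2VF cells with vehicle, 10.7% in WT cells with interferon and 13.7% in WT cells with vehicle. The 3 dimmest arrays were WT vehicle replicates 3 and 1 and WT interferon replicate 2.

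**Figure D1:**
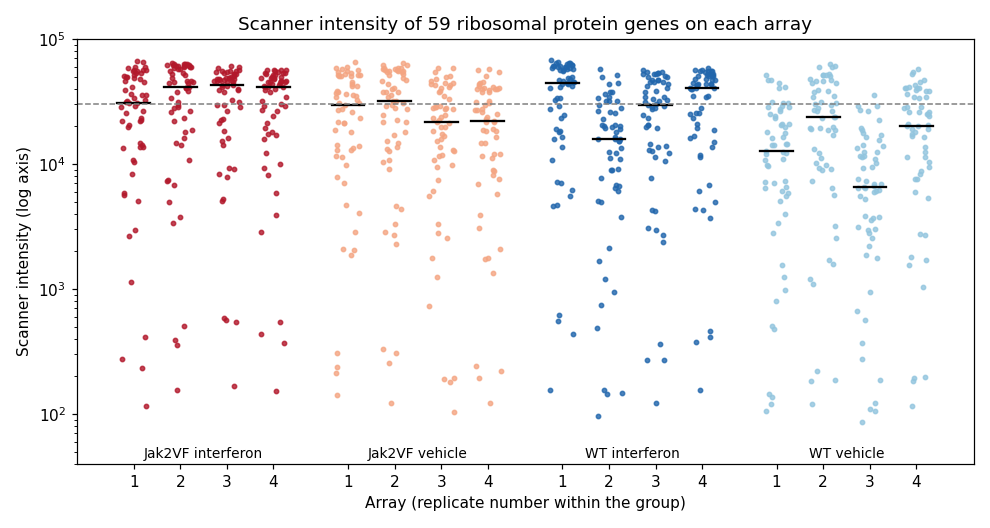
Scanner intensity (log axis, before normalization) of the 59 ribosomal protein genes on each of the 16 arrays, 1 point per gene, with a bar at the median of each array and a dashed line at 30000. Points crowd above the line on the brighter arrays, where up to 38 genes reach it, against 1 gene on the dimmest array, WT vehicle replicate 3.

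From a mean intensity of 1000 upward, the spread of signal over the arrays narrowed toward the top of the scale. For genes averaging 1000 to 5000, the highest array read a median 15.3 times the lowest for 6 ribosomal protein genes and 19.1 times for 2023 other genes. Above 30000 the ratio was 4.07 for 28 ribosomal protein genes and 6 for 18 other genes. Below 1000 it was also small, at 4.85 for 4 ribosomal protein genes and 4.6 for 7278 other genes. Quantile normalization then gave arrays one shared distribution on the log2 scale, called the normalized log2 intensity below. On that scale the median SD within groups was 0.146 for the 59 genes (0.08 to 0.46) and 0.309 for all 9680 genes, most of which were far dimmer. At matched intensity the spreads were closer. From 1000 to 5000 the median standard error (SE) was 0.148 for ribosomal protein genes and 0.141 for other genes. Above 30000 it was 0.107 and 0.12. Levels are not compared between genes, since a probe's brightness also depends on its sequence.

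With interferon, 3 of the 59 genes were higher in Jak2VF than in WT cells, namely Rps27a, Rps27l and Rpl14, and 0 were lower. All 3 belong to the 20 genes not marked as near saturation, though Rps27l came close to the mark of 30000, with a highest reading of 28289. By limma's test across all genes, with Benjamini-Hochberg adjustment at 0.05, 17.7% of all 9680 genes were called between the genotypes with interferon, and 7.62% were called higher. The share for ribosomal protein genes, 3 of 59, was thus below the background in this comparison. The median log2 difference of the 59 genes was −0.08, against 0.01 for all genes, and 40 of 59 lay below 0. Without background correction 5 genes were called, 3 higher and 2 lower, and the share of all genes called in that setting is not given here. The groups of 4 arrays did not overlap for 3 genes that were higher (13.2% of all genes) and 2 that were lower (14.7%). At an unadjusted p under 0.05 there were 8 genes, 4 in each direction (29.4% of all genes).

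Rps27a encodes ubiquitin fused to a small subunit protein, so that its translation supplies both. Its normalized log2 intensity was 12.21, 12.03, 11.85 and 12.29 in Jak2VF cells with interferon, against 11.18, 11.70, 11.08 and 11.65 in WT cells with interferon. All 4 Jak2VF arrays lay above all 4 WT arrays. The difference was log2 0.69 (SE 0.18, limma adjusted p = 0.0172). With vehicle the arrays read 11.70, 11.67, 12.10 and 11.58 in Jak2VF cells and 11.81, 11.48, 12.07 and 11.54 in WT cells, and they overlapped (log2 0.03, SE 0.18). The call was held by 28 of 33 other settings (adjusted p 0.0018 to 0.378). Of these settings 16 left out a single array, and 13 of the 16 held the call. Leaving out a vehicle array cannot change this difference, only the shared spread. Such tallies, here and for the genes below, are therefore not counts of independent checks. The arrays were split into 2 slides by the number in each array's code, which is an inference from that code. Within slide 1 the difference was log2 0.68 and within slide 2 it was 0.70, with no call in either (0.225 and 0.378). Leaving out replicate 1 (0.0504) or 3 (0.0578) of WT interferon, or replicate 4 of Jak2VF interferon (0.0632), also ended it.

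Rps27l is the paralogue of the small subunit gene Rps27 and is known as a target of p53. Jak2VF arrays with interferon read 14.32, 14.19, 13.82 and 13.95, and WT arrays with interferon read 13.42, 13.78, 13.57 and 13.74. Every Jak2VF array was above every WT array, with the lowest Jak2VF array close to the highest WT array. The difference was log2 0.44 (SE 0.13, limma adjusted p = 0.0273). With vehicle the values were 13.92, 13.99, 14.03 and 13.97 in Jak2VF cells and 13.82, 13.77, 14.03 and 13.72 in WT cells (log2 0.15, SE 0.13, adjusted p = 0.51). The call stood in 24 of 33 other settings (adjusted p 0.0028 to 0.657), and in 12 of the 16 among them that left out a single array. It was lost with median centring (0.0649), with cyclic loess (0.195), with only the 2 groups in the fit (0.0604), and on leaving out replicate 1 (0.0769) or 3 (0.0677) of WT interferon or replicate 1 (0.0848) or 2 (0.0742) of Jak2VF interferon. Within slide 1 it was log2 0.66 (0.168) and within slide 2 log2 0.22 (0.657).

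Rpl14 encodes a structural protein of the large subunit and had a dim probe, between 110.9 and 546.6 on the scanner's scale. It read 8.57, 8.05, 7.64 and 8.06 in Jak2VF cells with interferon, against 7.35, 7.74, 7.24 and 7.49 in WT cells with interferon. One Jak2VF array, replicate 3, lay below the highest WT array, so the groups overlapped. The difference was log2 0.62 (SE 0.20, limma adjusted p = 0.0406). With vehicle the order was turned, at 7.21, 7.92, 7.81 and 7.74 in Jak2VF cells and 7.94, 7.95, 8.12 and 7.70 in WT cells, but that difference did not pass (log2 −0.26, SE 0.20, adjusted p = 0.444). The interferon call stood in 22 of 33 other settings (0.0079 to 0.403), and in 9 of the 16 among them that left out a single array. It was lost with no filter on dim probes (0.0617), with the dimmest passing probe of each gene (0.0586) and within slide 1 (log2 0.76, 0.272) and slide 2 (0.48, 0.403). It was also lost without replicate 1, 2 or 4 of Jak2VF interferon, replicate 4 of Jak2VF vehicle, or replicate 1, 3 or 4 of WT interferon (0.0532 to 0.126).

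The paralogue of Rps27l, Rps27, gave values in the opposite direction under interferon. It read 14.93, 14.89, 14.40 and 14.70 in Jak2VF cells, against 15.02, 15.35, 15.11 and 15.02 in WT cells. All 4 Jak2VF arrays lay below all 4 WT arrays, though the difference of log2 −0.39 (SE 0.13, limma adjusted p = 0.0574) did not pass, and the gene is near saturation. It passed in 6 of 32 other settings (0.0247 to 0.557), among them without background correction (0.0251) and with the authors' processed values (0.0349). Rps3a, a small subunit protein, had a difference of log2 −0.32 (SE 0.12, adjusted p = 0.09), and 2 of 33 other settings called it.

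Rpl22, a large subunit protein needed in mice for T cell development, had the most negative difference among the 59 genes. It read 10.17, 10.997, 11.08 and 10.56 in Jak2VF cells with interferon, against 11.85, 10.35, 11.49 and 11.48 in WT cells with interferon. Of the 4 WT arrays 3 stood above all Jak2VF arrays, and WT interferon replicate 2, 1 of the 3 dimmest arrays, stood below 3 of them. The difference was log2 −0.59 (SE 0.30, limma adjusted p = 0.205). Without WT interferon replicate 2 it was −0.90 (adjusted p = 0.0244), and with array brightness as a covariate −0.92 (0.0015), over a range of 0.0015 to 0.646 in 33 settings of which 4 called it. Its paralogue Rpl22l1, deposited under an older name, differed by log2 −0.05 (SE 0.30, adjusted p = 0.94).

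**Figure D2:**
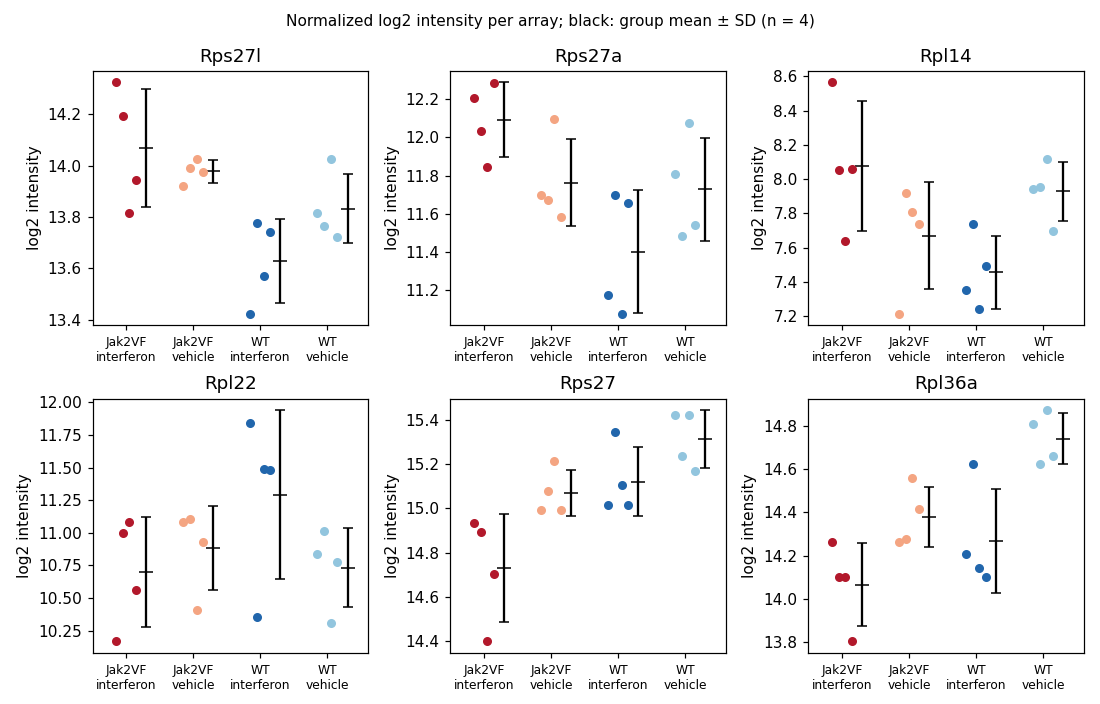
Normalized log2 intensity of 6 genes, 1 point per array, for Jak2VF interferon, Jak2VF vehicle, WT interferon and WT vehicle from left to right, with mean and SD (n = 4) in black. Rps27l, Rps27a and Rpl14 are the 3 genes called between the interferon groups, and in Rpl22 WT interferon replicate 2 stands far below the other WT interferon arrays.

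The difference of the interferon changes, Jak2VF minus WT, called 0 of 59 genes, against 0.114% of all genes. At an unadjusted p under 0.05 there were 3 genes, and 14.1% of all genes. The largest was Rpl14, with an interferon change of log2 0.41 in Jak2VF cells and −0.47 in WT cells, a difference of 0.88 (SE 0.28, limma adjusted p = 0.18). Rps27a changed by 0.33 in Jak2VF cells and −0.33 in WT cells (difference 0.66, SE 0.26, adjusted p = 0.275). Rpl21, a large subunit protein, changed by −0.17 in Jak2VF cells and 0.32 in WT cells (difference −0.49, SE 0.18, adjusted p = 0.25). A change called in one contrast only is therefore not shown to differ between the genotypes or treatments for any of the 59 genes.

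Between the genotypes with vehicle, 0 of 59 genes were called by limma (0.424% of all genes), and 2 had an unadjusted p under 0.05 (20.8% of all). The median difference was log2 −0.05, against 0.04 for all genes, with 39 of 59 below 0. All 59 genes had a 95% interval within log2 1 of 0, and 47 within log2 0.5. The groups did not overlap for 4 higher genes (5.66% of all genes) and 4 lower genes (4.14%). Rpl36a, a large subunit gene on the X chromosome, read 14.26, 14.28, 14.56 and 14.41 in Jak2VF cells, against 14.81, 14.62, 14.87 and 14.66 in WT cells. All 4 Jak2VF arrays were below all 4 WT arrays (log2 −0.36, SE 0.14, adjusted p = 0.183). Rps2, which lines the small subunit's messenger RNA path, read 15.14, 15.31, 15.24 and 15.15 in Jak2VF cells and 14.95, 14.89, 14.89 and 15.02 in WT cells, again without overlap (log2 0.27, SE 0.11, adjusted p = 0.192).

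Interferon in Jak2VF cells called 0 of 59 genes by limma, although 16% of all genes were called in that comparison. At an unadjusted p under 0.05 there were 13 genes, 2 higher and 11 lower (29.9% of all genes). The groups did not overlap for 2 higher genes (14.0% of all) and 9 lower genes (15.9%). The median change was log2 −0.10, against −0.0004 for all genes, and it was below 0 in each of 17 other settings (−0.49 with median centring to −0.03 with brightness as a covariate). Several of these settings, such as leaving out the 3 dimmest arrays, cannot alter a gene's change in Jak2VF cells. The shared sign is thus not independent support. Counts moved more, since 6 genes were called lower without the 3 dimmest arrays, which leave out no Jak2VF array but enter the shared estimate of the spread. The share of all genes called without those arrays is not given here.

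Rpl23a lies at the exit of the protein tunnel, where the signal recognition particle docks, and had the smallest p in Jak2VF cells. It read 14.62, 14.59, 14.41 and 14.38 with interferon, against 14.77, 14.80, 14.80 and 14.85 with vehicle. All interferon arrays lay below all vehicle arrays, and the change was log2 −0.30 (SE 0.10, limma adjusted p = 0.0536). Rps3a read 13.62, 13.73, 13.51 and 13.46 with interferon, against 13.87, 13.83, 14.10 and 13.99 with vehicle, also without overlap (log2 −0.37, SE 0.12, adjusted p = 0.0585). Rps14, whose loss in human marrow is described above, read 15.56, 15.24, 14.80 and 15.17 with interferon, against 15.65, 15.48, 15.57 and 15.57 with vehicle. Its highest interferon array reached into the vehicle range (log2 −0.38, SE 0.15, adjusted p = 0.0918). These 3 genes passed without background correction (Rpl23a 0.0149, Rps3a 0.0298, Rps14 0.0448) and without the 3 dimmest arrays (Rpl23a 0.0307, Rps3a 0.0184, Rps14 0.0491).

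Interferon in WT cells likewise called 0 of 59 genes by limma, against 2.27% of all genes. At an unadjusted p under 0.05 there were 7 genes, 2 higher and 5 lower (31.8% of all genes). The groups did not overlap for 2 higher genes (5.60% of all) and 1 lower gene (5.10%). The median change was log2 −0.13, against 0.05 for all genes, and with brightness as a covariate it turned to 0.002. Median centring gave −0.73 for the 59 genes and moved the median of all genes to −0.14, and cyclic loess gave −0.51. The 20 genes away from saturation had a median of −0.24 in the reported fit. The 95% interval lay within log2 1 of 0 for 56 of 59 genes and within log2 0.5 for 36.

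Rps25, a small subunit protein used in initiation at internal ribosome entry sites, had the most negative change in WT cells. It read 12.91, 13.92, 13.46 and 13.01 with interferon, against 14.28, 13.67, 14.38 and 13.95 with vehicle. Of the interferon arrays 3 lay below every vehicle array, and WT interferon replicate 2 lay within them (log2 −0.74, SE 0.25, limma adjusted p = 0.08). Rpl36a read 14.21, 14.62, 14.14 and 14.10 with interferon, against 14.81, 14.62, 14.87 and 14.66 with vehicle, with the same array as the 1 at the lower edge of the vehicle range (log2 −0.47, SE 0.14, adjusted p = 0.0657). Rps2 read 15.14, 15.04, 15.35 and 15.39 with interferon, against 14.95, 14.89, 14.89 and 15.02 with vehicle, without overlap (log2 0.29, SE 0.11, adjusted p = 0.0972). Leaving out WT interferon replicate 2 called 9 genes, 3 higher and 6 lower, among them Rps25 (0.0212), Rpl36a (0.0153), Rps2 (0.0371), Rpl22 (0.0276), Rpl21 (0.0398) and Rps3a (0.0422). The share of all genes called without that array is not given here, so the count is not read as particular to ribosomal protein genes.

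**Figure D3:**
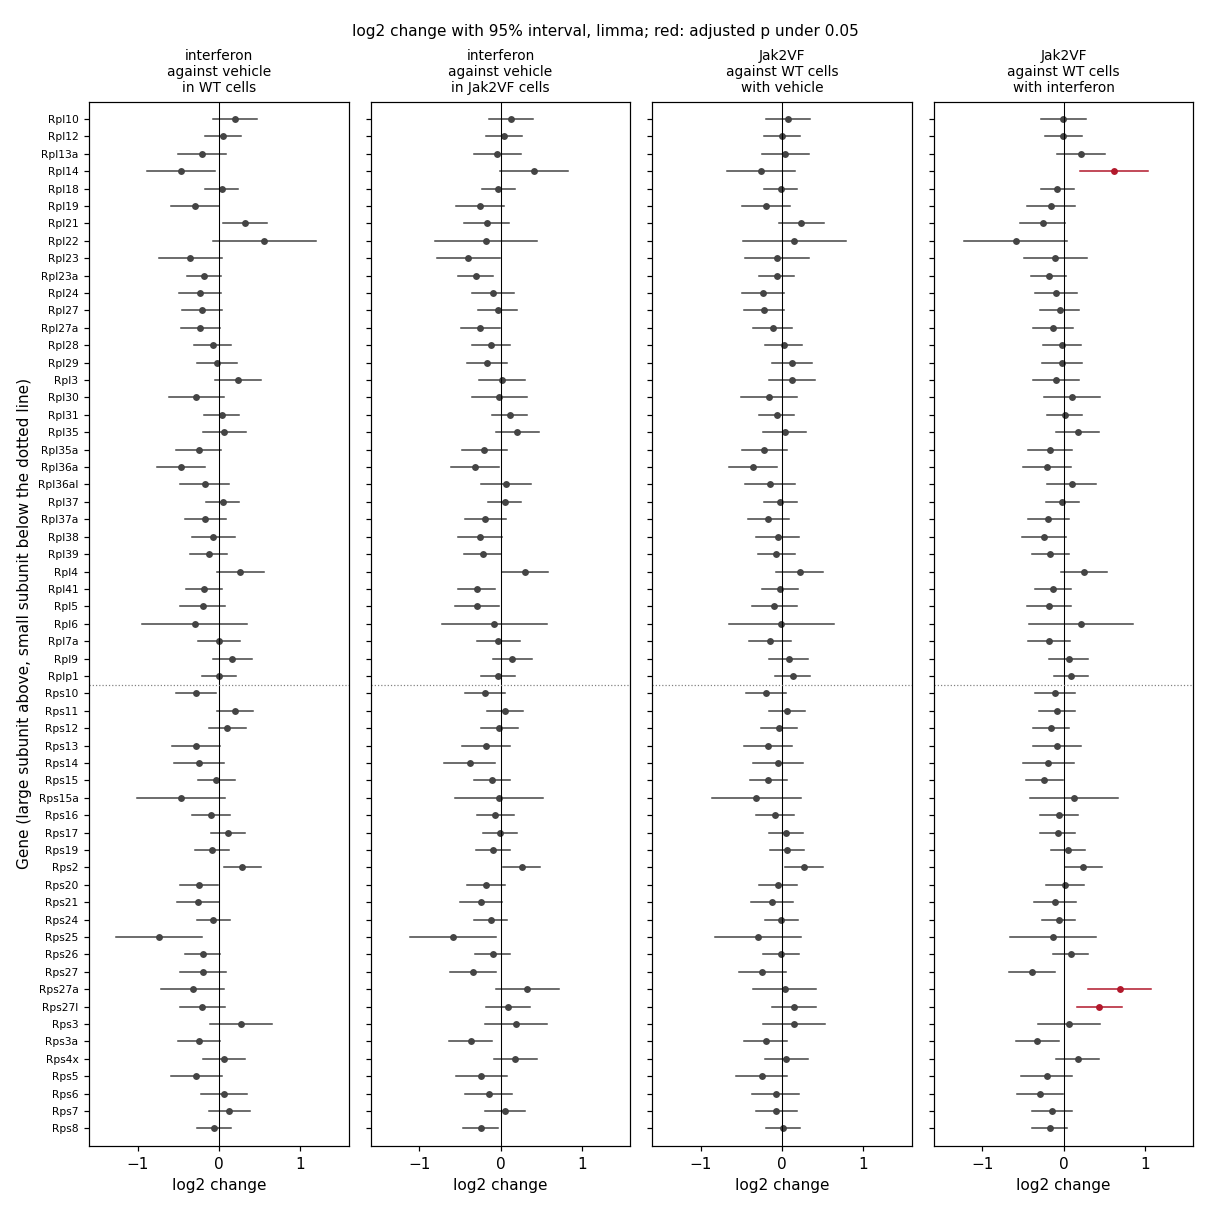
Log2 change with 95% interval (limma, 16 arrays) of each of the 59 genes in 4 comparisons, large subunit above and small subunit below the dotted line, with genes at adjusted p under 0.05 in red. Most points lie within 0.5 of 0, and the 3 red points are Rpl14, Rps27a and Rps27l in Jak2VF against WT cells with interferon.

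**Figure D4:**
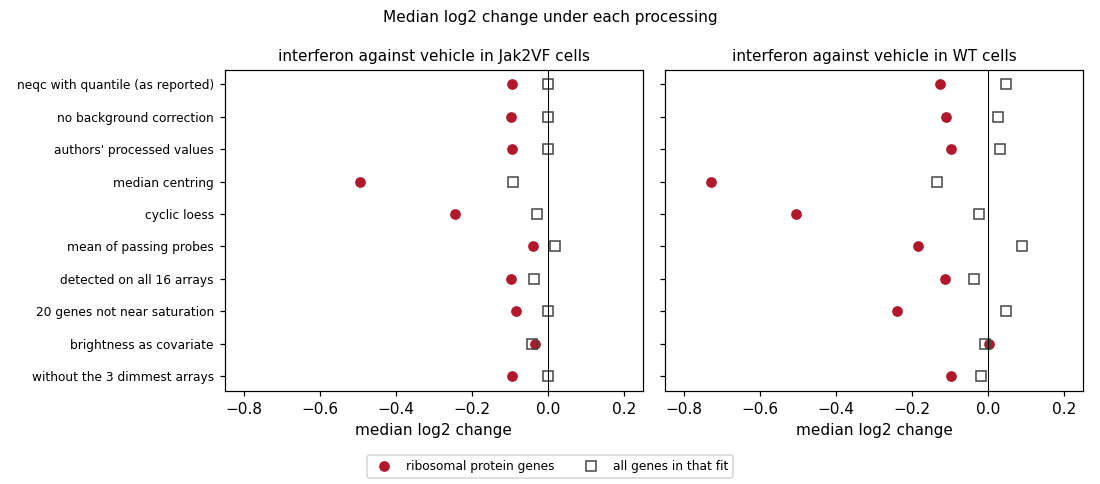
Median log2 change of the ribosomal protein genes (filled circles) and of all genes in the same fit (open squares) for interferon against vehicle in Jak2VF cells (left) and WT cells (right), 1 row for each way of processing. The circles run from −0.49 to −0.03 in Jak2VF cells and from −0.73 to 0.002 in WT cells, with median centring at the low end of both.

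The members with known roles outside these calls are given by group mean. Rplp1, of the stalk that recruits elongation factors, averaged 15.81 ± 0.05 in Jak2VF cells with interferon and 15.84 ± 0.06 with vehicle, and 15.72 ± 0.16 in WT cells with interferon and 15.71 ± 0.02 with vehicle (SD, n = 4). Rpl5, which binds the p53 inhibitor Mdm2 when assembly fails, averaged 14.98 ± 0.27 and 15.27 ± 0.07 in Jak2VF cells with interferon and vehicle, and 15.16 ± 0.14 and 15.36 ± 0.03 in WT cells. Its interferon change was log2 −0.29 in Jak2VF cells (SE 0.13, adjusted p = 0.141) and −0.20 in WT cells (SE 0.13, adjusted p = 0.274). Rps6 averaged 13.90 ± 0.27 and 14.05 ± 0.10 in Jak2VF cells with interferon and vehicle, and 14.19 ± 0.09 and 14.13 ± 0.15 in WT cells. Its difference between genotypes with interferon was log2 −0.29 (SE 0.13, adjusted p = 0.165).

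The anaemia genes Rps19 and Rpl35a, both near saturation, were called in no comparison. Rps19 averaged 15.44 ± 0.05 in Jak2VF and 15.38 ± 0.17 in WT cells with interferon, and 15.53 ± 0.05 and 15.47 ± 0.03 with vehicle. Rpl35a averaged 14.62 ± 0.16 in Jak2VF and 14.79 ± 0.15 in WT cells with interferon, and 14.82 ± 0.06 and 15.04 ± 0.22 with vehicle. The X-linked Rps4x differed by log2 0.17 between the genotypes with interferon (SE 0.12, adjusted p = 0.4). Among the other pairs, Rpl36al differed by 0.10 there (SE 0.14, adjusted p = 0.73) and Rpl36a by −0.20 (SE 0.14, adjusted p = 0.382). Rpl39, which lines the exit tunnel, differed by −0.17 (SE 0.11) and Rpl3, close to the peptidyl transferase centre, by −0.09 (SE 0.13), with no call in either. Rpl6, the dimmest gene kept, read between 86.3 and 167 on the scanner and differed by 0.22 (SE 0.30).

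Second probes of the same genes gave a view of the top of the scale, since 10 genes had 12 other probes that passed. Rpl38, Rps24, Rpl31 and Rps19 are described because their second probe was far dimmer, which was seen in the values. The brighter Rpl38 probe read 22293 on the dimmest array and 62231 at its highest, 2.79 times as much, and the dimmer probe spanned 12.8 times. For Rps24 the spans were 3.47 and 11.5 times, for Rpl31 5.95 and 13.1 times, and for Rps19 3.94 and 3.15 times. The dimmer Rps19 probe read no more than 351.7.

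Between the genotypes with interferon, 8 of the 12 other probes gave a difference above that of the brightest probe of their gene and 4 gave one below it, and 0 of the 12 were called (lowest adjusted p 0.0772). For Rpl38 the dimmer probe read 11.59, 11.29, 10.81 and 11.48 in Jak2VF cells, against 10.27, 11.20, 10.19 and 10.69 in WT cells on the normalized log2 scale. Of the 4 Jak2VF arrays 3 lay above every WT array. That difference was log2 0.70 (SE 0.25, adjusted p = 0.0772 over 13364 probes, of which 14.1% were called), and the bright probe gave −0.24. The dimmer Rps19 probe read 7.63, 6.95, 6.68 and 7.31 in Jak2VF cells, against 5.88, 6.49, 5.98 and 6.14 in WT cells. All 4 Jak2VF arrays were above all WT arrays (log2 1.02, SE 0.37, adjusted p = 0.0813), while the bright probe gave 0.05. In WT cells with vehicle the same Rps19 probe had its lowest scanner reading, 111.7, on replicate 3, where its normalized value of 8.19 was the highest of the 16. For Rps24 the dimmer probe gave 0.33 (SE 0.17, adjusted p = 0.249) and the bright one −0.06, and for Rpl31 the dimmer gave 0.14 and the bright one 0.01. The other way, the dimmest probes of Rpl23 gave −0.31 and −0.25, against −0.10 for the brightest, while its second brightest probe gave −0.03 and lay above it. The second probe of Rpl21 gave −0.40 against −0.25, and that of Rps3 −0.05 against 0.06. The balance differed between comparisons. For interferon in Jak2VF cells 9 of the 12 other probes lay above the brightest probe and 3 below. In WT cells the counts were 5 and 7, and between genotypes with vehicle 3 and 9. The reason for the difference between probes was not tested.

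**Figure D5:**
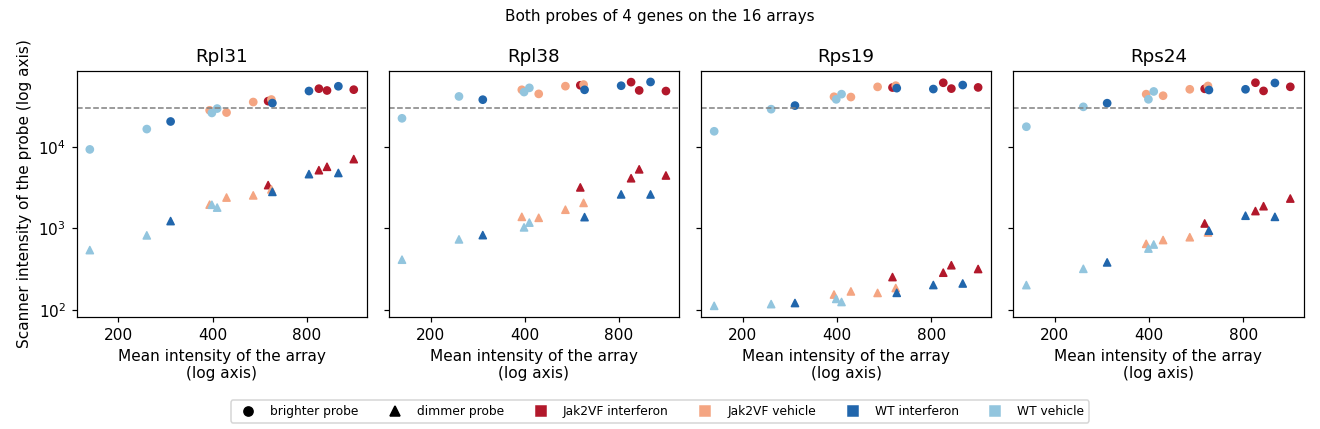
Scanner intensity (log axis) of the brighter (circles) and dimmer (triangles) probe of Rpl31, Rpl38, Rps19 and Rps24 against the mean intensity of each of the 16 arrays (log axis), coloured by group, with a dashed line at 30000. The dimmer probes of Rpl31, Rpl38 and Rps24 climb with array brightness over more than 11 times, while their brighter probes span 5.95, 2.79 and 3.47 times. For Rps19 the brighter probe spans more than the dimmer one (3.94 against 3.15 times).

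Genes whose current symbol begins like those of ribosomal proteins, but which the deposited table lists under older names, stand outside the selection, and 9 of them passed the filter. They include Rps19bp1 and Rps23rg1, which do not encode ribosomal proteins. Rplp0, the anchor of the P stalk (listed as Arbp), read 9.92, 9.98, 9.78 and 10.03 in Jak2VF cells with interferon, against 9.64, 9.46, 9.27 and 9.66 in WT cells with interferon. All 4 Jak2VF arrays lay above all WT arrays, and the gene was called higher (log2 0.42, SE 0.13, limma adjusted p = 0.0313). Its interferon change was 0.20 in Jak2VF cells (SE 0.13, adjusted p = 0.324) and −0.28 in WT cells (SE 0.13, adjusted p = 0.138), and the difference of the changes did not pass (0.48, SE 0.18, adjusted p = 0.244). Rpsa, listed as Lamr1, was detected on 11 arrays and gave log2 −0.01 between genotypes with interferon (SE 0.25). Rpl7l1 gave 0.32 there (SE 0.13, adjusted p = 0.103), Rps19bp1, a protein that binds Rps19, gave 0.29 (SE 0.21, adjusted p = 0.4), and Rpl39l did not pass the filter. Rps4l, with a dim probe between 107.1 and 414.1, had the largest difference of the 9, in the other direction (−1.65, SE 0.62, adjusted p = 0.0811).

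Genes that build and regulate ribosomes are given beside them, with no test between the lists. Of 28 measured ribosome biogenesis and p53 genes (33 listed), interferon called 8 higher and 0 lower in Jak2VF cells, with a median of log2 0.35, where 16% of all genes were called in either direction. They included Tsr1, known in yeast as a small subunit assembly factor (0.72, SE 0.15, adjusted p = 0.0054), Rrp12, known in yeast as an export factor of both subunits (0.72, SE 0.15, 0.0046), Heatr1, of the early small subunit processome (0.61, SE 0.10, 0.0015), and Gnl3, the nucleolar protein nucleostemin (0.58, SE 0.17, 0.0319). Between the genotypes with interferon 7 were higher and 0 lower (7.62% of all genes were higher), led by Rrp9, which binds U3 RNA (0.96, SE 0.13, adjusted p = 0.00031). In WT cells with interferon, and between genotypes with vehicle, 0 of 28 were called. There 13 (46.4%) and 10 (35.7%) had an unadjusted p under 0.05, against 31.8% and 20.8% of all genes.

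Mitochondrial ribosomal protein genes form the most similar complex, and 70 were measured. Between the genotypes with interferon 21 were higher and 0 lower (7.62% of all genes were higher), with a median of log2 0.35 against −0.08 for the cytosolic ones. With interferon 5 were higher and 0 lower in Jak2VF cells (median 0.08), where 16% of all genes were called in either direction. In WT cells 0 were called (median −0.26). There 32 of 70 (45.7%) had an unadjusted p under 0.05, 9 higher and 23 lower, against 31.8% of all genes. Of 20 measured other TOP and translation genes (22 listed), interferon in WT cells called 1, where 2.27% of all genes were called. It was Hnrnpa1, an RNA-binding protein (log2 1.46, SE 0.34, adjusted p = 0.0386). Between the genotypes with interferon 1 of the 20 was called, a share below the 17.7% of all genes. It was Npm1, the nucleolar protein nucleophosmin (0.47, SE 0.14, adjusted p = 0.0321).

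Of 19 measured regulators of translation (24 listed), Pdcd4, an inhibitor of the helicase eIF4A, was lower in Jak2VF than in WT cells with interferon (log2 −1.82, SE 0.20, adjusted p = 6.8e-05) and with vehicle (−1.16, SE 0.20, 0.0164). Ddit4, an inhibitor of mTORC1, was lower with interferon (−1.52, SE 0.39, 0.0133), as was the S6 kinase family gene Rps6ka1 (−1.03, SE 0.13, 0.00019), and the initiation factor gene Eif4g1 was higher (0.42, SE 0.13, 0.0388). With interferon in Jak2VF cells Pdcd4 fell (−1.09, SE 0.20, adjusted p = 0.0022), Rps6ka1 fell (−0.94, SE 0.13, 0.0005) and Eif4ebp1, a repressor of eIF4E, rose (0.34, SE 0.11, 0.0444). The 4 of 19 called between the genotypes with interferon and the 3 of 19 called with interferon in Jak2VF cells are shares near those of all genes, 17.7% and 16%. In WT cells 0 of 19 were called with interferon, and 7 had an unadjusted p under 0.05, also near the 31.8% of all genes.

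Markers of other cells and stages moved with the same contrasts, and in bulk RNA fewer cells of a type and less RNA per cell cannot be told apart. Summed levels (linear, after normalization) of 16 of 20 red cell markers ran from 22395 to 29850 in Jak2VF cells with interferon, 9534 to 13674 in Jak2VF cells with vehicle, 11244 to 16806 in WT cells with interferon and 7310 to 9273 in WT cells with vehicle. Between the genotypes with interferon 8 of the 16 were higher and 0 lower, where 738 of all 9680 genes (7.62%) were higher and 979 lower. Sums of 13 of 16 stem and progenitor markers ran from 9582 to 15574 in Jak2VF cells with interferon, 16553 to 19208 in Jak2VF cells with vehicle, 22134 to 25357 in WT cells with interferon and 19610 to 25433 in WT cells with vehicle. In that contrast 5 of the 13 were lower and 1 higher. Of 10 megakaryocyte markers 6 were lower there and 0 higher. Their sums with interferon ran from 13401 to 25688 in Jak2VF cells and 44749 to 55725 in WT cells. With vehicle they ran from 28803 to 37367 in Jak2VF cells and 35992 to 51455 in WT cells. Granulocyte and monocyte markers (16 of 17) summed to 10806 to 12766 in Jak2VF against 20956 to 28856 in WT cells with interferon. With vehicle their sums were 17380 to 70782 in Jak2VF cells and 29334 to 92621 in WT cells. Eosinophil, mast cell and basophil markers (9 of 13) summed to 1103 to 2787 with interferon and 9272 to 21642 with vehicle in Jak2VF cells, and to 2433 to 3998 and 10220 to 35998 in WT cells. Few lymphocyte markers were measured, 5 of 12 for B and plasma cells and 2 of 12 for T and NK cells, and Cd3e and Cd4 were not among them. The B and plasma cell sums ran from 314.1 to 551.3 with interferon and 873.3 to 1421 with vehicle in Jak2VF cells, and from 657.4 to 942.7 and 1160 to 2098 in WT cells. With interferon 4 of these 5 markers fell and 1 rose in each genotype, and the rise, log2 1.29 in WT and 0.05 in Jak2VF cells, was not called. Mzb1, a plasma cell protein of the endoplasmic reticulum, fell the most with interferon in Jak2VF cells (log2 −3.13, SE 0.38, adjusted p = 0.00031) and in WT cells (−4.41, SE 0.38, adjusted p = 6.9e-05). The T and NK cell sums ran from 2256 to 3546 with interferon and 5032 to 6818 with vehicle in Jak2VF cells, and from 4618 to 6635 and 6204 to 6570 in WT cells. Nkg7, of cytotoxic granules, was lower with interferon than with vehicle in Jak2VF cells (−0.94, SE 0.17, adjusted p = 0.002) and lower in Jak2VF than in WT cells with interferon (−0.95, SE 0.17, adjusted p = 0.0013). The part of these cells in the values of Rps27a, Rps27l and Rpl14 was not tested.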

How the data were processed

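Arrays were placed in 4 groups by the labels, and replicate numbers only count them. The deposited table gives, per the file headers, an average signal per probe and array, an intensity on a linear scale without normalization between arrays, and a detection p-value. The authors' second table of processed intensity values served as an alternative. Columns not used numbered 0. RNA was extracted and amplified with commercial kits, per the labels' protocols, and the scanner software is not given in the sources used here.

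Intensities were background corrected with normexp (offset 16, background inferred from detection p-values), quantile normalized and taken to log2 with neqc in limma 3.58.1 (R 4.3.3). Probes with detection p under 0.05 on at least 4 arrays were kept (13374), and the brightest stood for a gene. One model with 4 group means was fitted to 16 arrays by lmFit, then eBayes, with 12 residual degrees of freedom and 2.73 from the prior, for 5 comparisons, each adjusted by Benjamini-Hochberg over 9680 genes and called at 0.05. The procedure was tested on simulated data. The number of arrays limits the precision. Of the 59 genes, 46 have pseudogenes named after them, up to 24, whose transcripts a probe may share.

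Named genes were the called ribosomal protein genes, or the 2 of smallest p where none was called, the stalk, p53, anaemia and paralogue genes, Rps6, Rps27a and Rps4x, those of highest and lowest mean level, and up to 4 called genes of each other list. Rpl41, Rpl38, Rps24 and Rpl31 were chosen after their values were seen. The genes and lists were chosen with earlier results of these data known. Alternatives covered background, normalization, filters, probe choice, slide, brightness, array weights and single arrays left out.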

Additional observations from a re-analysis of the deposited data

Results flagged for a closer look

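Among the 88 groups of 4 arrays of the named ribosomal protein genes, 4 held an array whose gap to the nearest other array exceeded Dixon's critical value of 0.829 of the group's range. Chance flags about 1 in 20 groups. Rplp1 in Jak2VF cells with vehicle read 15.75 on replicate 2, against 15.88 on the other arrays, and in WT cells with vehicle 15.69 on replicate 3, against 15.72 on the others. Rplp1 is near saturation, and after quantile normalization the other 3 arrays of each of these groups held equal values to 2 decimals. Rpl23a in WT cells with vehicle read 15.02 on replicate 3, against 14.80 to 14.83 on the others. Rpl6 in WT cells with vehicle read 4.55 on replicate 3, against 5.62 to 5.79 on the others. WT vehicle replicate 3, which holds 3 of these 4 values, was the dimmest array (mean intensity 162.1), and its part in them was not tested.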

How the results depend on the processing

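No paired analysis was possible because the labels give no replicate numbers that tie arrays across groups. The 2 slides are inferred from the number in each array's code. Each held 2 arrays of every group, and the slide as a block left the counts at 0 with interferon in either genotype and with vehicle between genotypes, and at 3 between genotypes with interferon. Within slide 1 and within slide 2 that last count was 0, and within slide 1 the median of the difference of changes was 0.0502.

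For interferon in WT cells the count of called ribosomal protein genes, 0 as reported, was 1 without background correction, with median centring, with the authors' processed values and with detection required on all 16 arrays, and 9 with array weights. For interferon in Jak2VF cells it was 1 with no filter and with only the groups compared, 2 with the authors' values, 3 with brightness as a covariate, 4 with detection on all 16 arrays, 6 without background correction and without the 3 dimmest arrays, and 8 with array weights. Between genotypes with interferon it was 5 without background correction and with detection on all 16 arrays (3 higher, 2 lower in each), and 9 with array weights (3 higher, 6 lower). It was 2 with cyclic loess and with only the groups compared, which lost Rps27l, and 2 with no filter on dim probes, which lost Rpl14. With median centring it was 3, without Rps27l among them. It was 0 between genotypes with vehicle and for the difference of changes in every setting run. The 2 alternatives added after seeing the data, the dimmest passing probe and the addition of the 9 genes listed under older names, gave 2 and 4 between genotypes with interferon.

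Leaving out 1 array at a time gave counts of 0 to 9 for interferon in WT cells (9 without WT interferon replicate 2, 2 without WT vehicle replicate 2, 1 without WT vehicle replicate 4), 0 to 2 for interferon in Jak2VF cells (2 without Jak2VF interferon replicate 1, WT interferon replicate 2 or WT vehicle replicate 3), and 0 to 4 between genotypes with interferon (0 without WT interferon replicate 1 or 3, 1 without Jak2VF interferon replicate 2 or 4). Such lone omissions use the spread pooled over the groups. For the settings that refit the model, the share of all genes called is not given here. Their counts are thus not read as particular to ribosomal protein genes.

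Median changes moved beyond the spread between arrays (SD 0.0596) with median centring (−0.49 for interferon in Jak2VF cells, −0.73 in WT cells, −0.31 between genotypes with vehicle, 0.27 for the difference of changes), with cyclic loess (−0.24 for interferon in Jak2VF cells, −0.51 in WT cells and between genotypes with vehicle, −0.34 with interferon, 0.24 for the difference), with brightness as a covariate (−0.0346 for interferon in Jak2VF cells and 0.00199 in WT cells) and over the 20 genes away from saturation (−0.24 in WT cells with interferon, −0.16 between genotypes with vehicle, 0.12 for the difference). Left-out arrays kept each median within that spread. The cause of these shifts was not tested. Signals near the top of the scale may limit what the 39 of 59 genes called near saturation can show, and signals close to background limit Rpl6. Of 56 other genes that reached 30000 on any array, 10 were called higher and 7 lower between genotypes with interferon. With interferon in Jak2VF cells 5 were higher and 3 lower. In WT cells with interferon, and between genotypes with vehicle, 0 were called. Whether saturation kept any of the 39 genes from being called was not tested.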
